A study of Mus musculus with 15 samples.

Results

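The 10 genes of leukocyte adhesion and gut homing described here were followed across mouse colon RNA-seq libraries: the endothelial ligands Icam1, Vcam1 and Madcam1, the selectins Sele and Selp, and the integrin subunits Itga4, Itgb7, Itgae, Itgal and Itgb2. They were taken by gene symbol from a deposited count table of 56859 genes, and all 10 were found. The libraries were made from colon tissue of C57BL/6J mice, all male and 6 to 10 weeks old, with 3 libraries in each of 5 groups. The model was colitis-associated colorectal cancer: azoxymethane (AOM, a carcinogen, 10 mg/kg on day 0) followed by 2.5% dextran sulfate sodium (DSS, which injures the epithelium) in drinking water on days 7 to 11, 28 to 32 and 49 to 53. Saline D27, saline D48 and saline D100 libraries came from AOM/DSS mice injected with saline on the DSS days. APX3330 libraries came from AOM/DSS mice injected instead with APX3330 (also labelled E3330, which blocks the redox activity of APE1/Ref-1) at 25 mg/kg on those days. The Control libraries are labelled only as wild type, while a protocol shared by every sample says that all mice received AOM, so the exposure of the Control mice is not clear. The days 27, 48 and 100 come from the sample descriptions. The titles of the D48 libraries say cycle 1 and those of the D100 libraries cycle 2. Those of the D27 and APX3330 libraries name no cycle. No day is given for APX3330, so drug and day cannot be told apart in any comparison with APX3330. No label states that the 3 libraries of a group came from separate mice, and p-values therefore measure the spread between libraries, which may be technical.

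Leukocytes leave the blood in steps. Selectins on activated endothelium catch and slow the cells by their sugar ligands, after which chemokines switch integrins on the leukocyte to a binding state and the integrins hold on to immunoglobulin-family ligands of the vessel wall. MAdCAM-1, the product of Madcam1, is the addressin of mucosal venules and binds the heterodimer of the Itga4 and Itgb7 products. VCAM-1 (Vcam1) binds the Itga4 product paired with the product of Itgb1, and ICAM-1 (Icam1) binds LFA-1, the heterodimer of the Itgal and Itgb2 products. The Itgae product pairs with that of Itgb7 and binds E-cadherin, which holds lymphocytes and some dendritic cells at the epithelium. Inflammatory cytokines such as TNF and IL-1 raise endothelial ligands and selectins through NF-kB.

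On the GRCm38 assembly with GENCODE M21, Icam1 lies at chr9:21015985-21028817 (plus strand), Vcam1 at chr3:116109949-116129688 (minus), Madcam1 at chr10:79664559-79668537 (plus), and Sele and Selp near each other at chr1:164048234-164057677 and chr1:164115264-164150026 (both plus). Itga4 lies at chr2:79255426-79333123 (plus), Itgb7 at chr15:102215995-102231944 (minus), Itgae at chr11:73090583-73147446 (plus), Itgal at chr7:127296260-127335138 (plus) and Itgb2 at chr10:77530252-77565708 (plus). Annotated genes on the opposite strand overlap Icam1 (Gm47079), Vcam1 (Gm43109), Selp (Gm16587 and Gm16548), Itga4 (Cerkl) and Itgae (Haspin). Whether counting used strand is not given in the sources used here, so counts of these 5 members are uncertain to that extent.

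RefSeq promoter sequences (GRCm38.p6) were found for 6 members. The 250 bases before the start of 3 of them are shown because these genes encode cytokine-inducible endothelial molecules and hold a kappa-B-like match. Capitals mark matches to the NF-kB consensus in Madcam1 and to another pattern, GGANNTTCC, in Icam1 and Sele, each searched on both strands and written 5′ to 3′ on the gene's strand.
Icam1, chr9:21015690-21015939, plus strand: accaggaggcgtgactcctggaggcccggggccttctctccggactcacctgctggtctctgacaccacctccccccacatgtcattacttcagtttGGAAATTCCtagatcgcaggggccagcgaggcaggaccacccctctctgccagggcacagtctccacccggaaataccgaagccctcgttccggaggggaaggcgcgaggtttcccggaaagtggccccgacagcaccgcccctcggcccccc
Madcam1, chr10:79664309-79664558, plus strand: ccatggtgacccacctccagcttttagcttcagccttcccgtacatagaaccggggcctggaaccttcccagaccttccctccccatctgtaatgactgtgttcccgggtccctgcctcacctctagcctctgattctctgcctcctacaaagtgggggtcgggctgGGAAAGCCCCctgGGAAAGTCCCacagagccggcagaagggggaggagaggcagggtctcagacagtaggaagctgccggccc
Sele, chr1:164047984-164048233, plus strand: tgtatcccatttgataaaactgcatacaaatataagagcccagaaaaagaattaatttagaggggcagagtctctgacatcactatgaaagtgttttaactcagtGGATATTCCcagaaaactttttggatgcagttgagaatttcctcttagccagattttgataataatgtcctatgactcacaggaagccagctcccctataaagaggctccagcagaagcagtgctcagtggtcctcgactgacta
Madcam1 held 2 matches to the NF-kB consensus, 83 to 74 and 70 to 61 bases before the start, both read on the minus strand, and the latter also overlaps its match to GGANNTTCC. Among 32851 promoters of the same length 7.25% held at least 1 consensus match and 1.03% held 2 or more. The pattern GGANNTTCC, chosen after these promoters had been read, occurred once each in Icam1 (153 to 145 bases before the RefSeq start at 21015940, which lies upstream of the GENCODE start given above), Madcam1 and Sele (145 to 137 bases before the start) and in 3.59% of all promoters. Selp, Itga4 and Itgb7 held neither pattern in this window. A match describes letters only, and binding at these sites was not tested.

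Library totals ran from 13548661 to 17919613 counts. After removal of genes with low counts 18038 genes were tested, and 9 members were among them. Sele, with 0 to 23 counts a library, did not pass. Several libraries carried transcripts of other tissues: 8 squamous epithelial genes summed to 1010, 472 and 856 CPM (counts scaled to library size) in Control replicates 1 and 3 and saline D100 replicate 1. The same 2 Control libraries held 7 skeletal muscle markers at 1790 and 811 CPM, against 7.10 to 32.9 CPM in the other 13 libraries. Smooth muscle markers summed to 10100 to 10400 CPM in Control, 7290 to 9800 CPM at D27 and 4340 to 6720 CPM in the other groups. Exocrine pancreatic genes made up 3.27% and 0.865% of counts in saline D48 replicates 2 and 3. Saline D48 replicate 3 also held the most leukocyte RNA. Its 10 pan-leukocyte markers summed to 1390 CPM against 185 to 688 CPM in the other 14 libraries, and its 10 B cell markers to 718 CPM against 84.1 to 377 CPM. Endothelial markers were present in every library (14 genes summing to 356 to 559 CPM), as were epithelial markers of the colon. In bulk tissue, fewer cells of a type and less RNA per cell cannot be told apart.

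All 9 tested members differed among the 5 groups (edgeR quasi-likelihood F test, Benjamini-Hochberg adjusted p between 9.72e-05 for Vcam1 and 0.01 for Itgae), where 37.3% of all tested genes did so. Levels were adjusted for the combined length of all annotated exons of a gene, as mean CPM per kilobase over the 15 libraries. On this scale the leukocyte subunits Itgb2 (11.3), Itgb7 (8.34) and Itgal (5.34) had the highest levels. On the same means the endothelial ligands followed at 4.46 for Icam1, 3.55 for Madcam1 and 3.27 for Vcam1, then Itgae at 2.08 and Itga4 at 1.6. The selectins were lowest, at 0.744 CPM per kilobase for Selp and 0.104 for Sele. Groups differ in this order: in Control, Icam1 (2.35), Vcam1 (1.89) and Madcam1 (1.75 CPM per kilobase) stood above Itgal (1.73). The length joins the exons of all isoforms, 13978 bases for Itga4 and 8870 for Vcam1. It can exceed that of the transcripts expressed, so the order of genes depends on this choice.

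**Figure D1:**
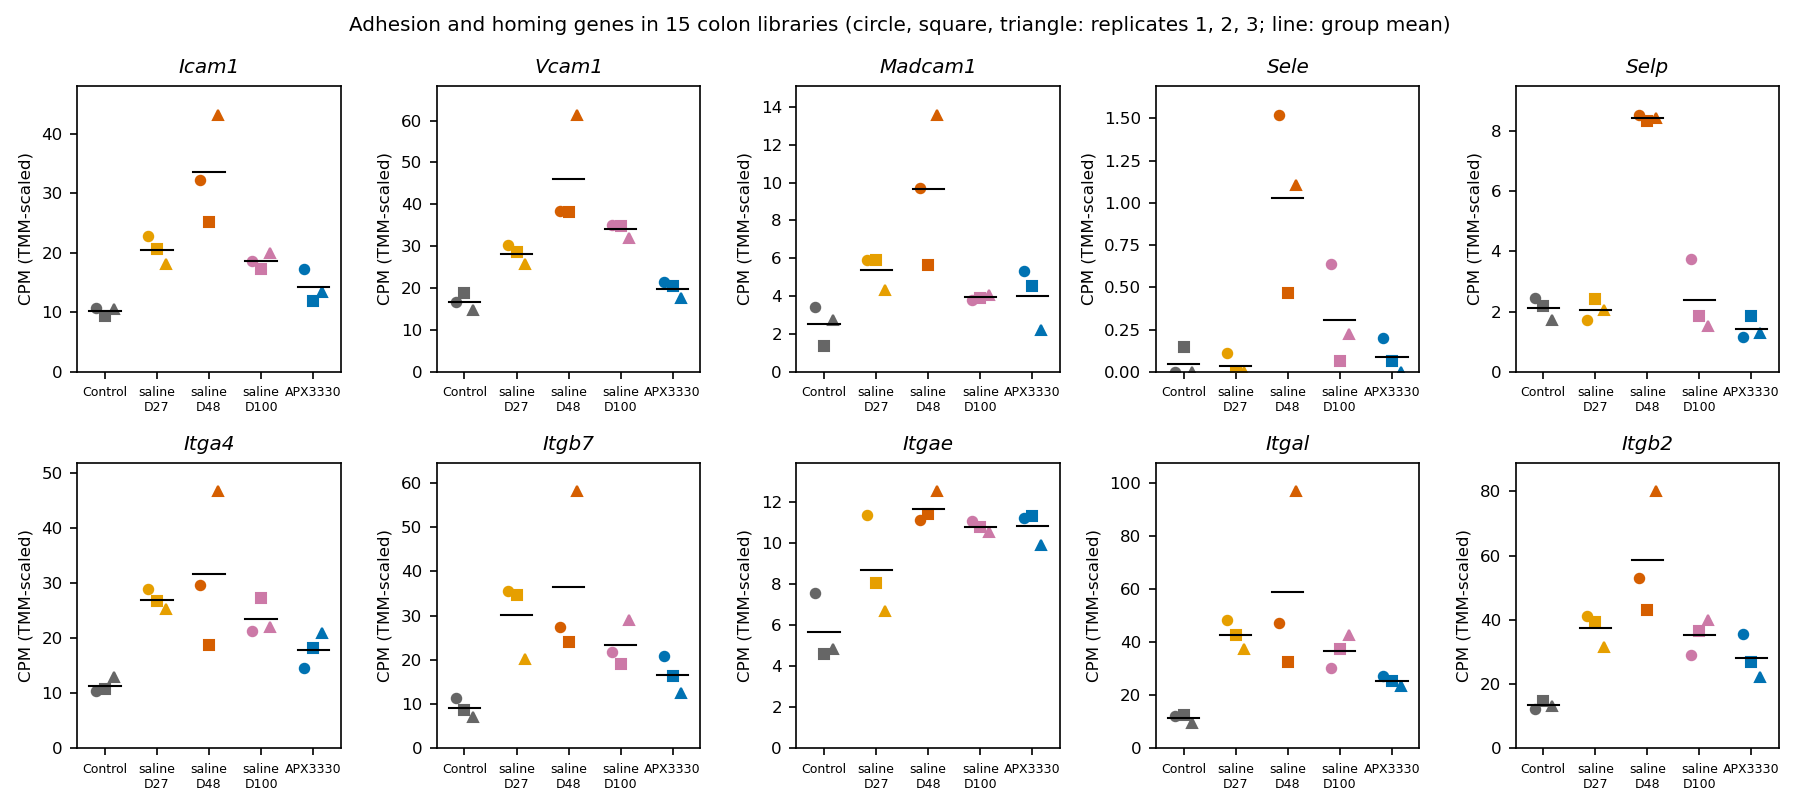
Level of each gene in every library, in CPM scaled by TMM (y axes start at 0 and differ between panels), for Control, the 3 saline groups and APX3330. Points are single libraries and lines are group means of 3. Saline D48 replicate 3 (triangle) is the highest point for 8 of the 10 genes, and Selp is high in all 3 saline D48 libraries, at 8.33 to 8.53 CPM.

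Icam1, the endothelial and leukocyte ligand of LFA-1, was measured at 10.8, 9.42 and 10.5 CPM in the Control libraries, 22.9, 20.7 and 18.1 CPM at saline D27, 32.3, 25.3 and 43.3 CPM at saline D48, 18.7, 17.4 and 20.0 CPM at saline D100 and 17.2, 11.9 and 13.5 CPM with APX3330. Every saline library lay above every Control library, and every APX3330 library lay between the Control libraries and those of each saline group. Group means were 10.3 ± 0.731 CPM (SD, n = 3) in Control, 33.6 ± 9.07 CPM at saline D48 and 14.2 ± 2.75 CPM with APX3330. Icam1 rose by log2 1.00 ± 0.186 (SE) at saline D27, 1.71 ± 0.187 at D48 and 0.86 ± 0.187 at D100 against Control, with edgeR adjusted p of 0.00216, 3.13e-05 and 0.00402. APX3330 libraries were lower than saline D48 by log2 -1.25 ± 0.183 (edgeR adjusted p = 0.00053), and their difference from Control (0.47 ± 0.188) did not pass (edgeR adjusted p = 0.105).

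Vcam1, the ligand of Itga4-containing integrins, stood at 16.6, 18.8 and 14.8 CPM in Control, 30.3, 28.6 and 25.8 CPM at saline D27, 38.3, 38.2 and 61.4 CPM at D48, 35.1, 34.9 and 32.1 CPM at D100 and 21.4, 20.6 and 17.7 CPM with APX3330. The 9 saline libraries were all above the APX3330 libraries, and APX3330 overlapped Control. The rises against Control were log2 0.76 ± 0.168, 1.46 ± 0.168 and 1.02 ± 0.168 at D27, D48 and D100 (edgeR adjusted p 0.00603, 4.6e-05 and 0.000567). With APX3330 the level was lower than at saline D48 by log2 -1.21 ± 0.166 (edgeR adjusted p = 0.000347). Against saline D100 the difference of log2 -0.78 ± 0.166 narrowly missed the threshold (edgeR adjusted p = 0.0516) and passed it with DESeq2 (adjusted p = 0.00215). The APX3330 level was within log2 0.25 ± 0.169 of Control, a difference that did not pass (edgeR adjusted p = 0.35).

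Madcam1, the mucosal addressin, was a low-count gene with 19 to 234 counts a library. Its level was 3.41, 1.39 and 2.73 CPM in Control, 5.91, 5.92 and 4.34 CPM at saline D27, 9.73, 5.66 and 13.6 CPM at D48, 3.82, 3.91 and 4.06 CPM at D100 and 5.34, 4.53 and 2.21 CPM with APX3330. No Control library reached any saline library, whereas the APX3330 libraries overlapped those of Control, D27 and D100. The rise passed the test at D48 (log2 1.94 ± 0.379, edgeR adjusted p = 0.00166), missed it at D27 (1.10 ± 0.378, adjusted p = 0.0535) and missed it at D100 (0.64 ± 0.382, adjusted p = 0.257). APX3330 was lower than saline D48 by log2 -1.26 ± 0.366 (edgeR adjusted p = 0.0252), a call that was lost without saline D48 replicate 1 or 3 or without APX3330 replicate 2 or 3.

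Selp encodes P-selectin, which endothelium and platelets store ready-made. Its level was 2.44, 2.19 and 1.73 CPM in Control, 1.73, 2.41 and 2.05 CPM at saline D27, 8.53, 8.33 and 8.42 CPM at D48, 3.75, 1.86 and 1.51 CPM at D100 and 1.15, 1.87 and 1.27 CPM with APX3330. The 3 D48 libraries agreed closely (8.43 ± 0.103 CPM, SD, n = 3) and were all above the other 12 libraries, which overlapped across their groups. Selp rose at D48 by log2 1.99 ± 0.320 against Control and by 2.03 ± 0.320 against saline D27 (edgeR adjusted p 0.000441 and 0.0083), and it was lower by -1.83 ± 0.318 at D100 than at D48 (adjusted p = 0.00228). APX3330 libraries stood below saline D48 by log2 -2.55 ± 0.331 (edgeR adjusted p = 0.000231), and leaving out saline D48 replicate 3, the library rich in leukocyte RNA, gave the same -2.55 ± 0.372 (adjusted p = 0.00121). At D27 and D100 the differences from Control were -0.05 ± 0.327 and 0.16 ± 0.327, neither of which passed (adjusted p 0.943 and 0.773).

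Sele, the E-selectin gene of activated endothelium, gave few counts, 0 to 23 a library. The libraries held 0, 2 and 0 counts in Control, 2, 0 and 0 at saline D27, 23, 7 and 19 at D48, 9, 1 and 3 at D100 and 3, 1 and 0 with APX3330. All 3 D48 libraries exceeded every Control, D27 and APX3330 library, and 1 of them overlapped D100. At the depth of these libraries 0 counts allow a level of up to 0.167 to 0.226 CPM (3 counts), and no Control, D27 or APX3330 library held more than 3 counts. Saline D100 replicate 1, at 0.636 CPM, lay above D48 replicate 2. Summed over a group and scaled to library size, D48 exceeded Control 22.9-fold (95% counting interval 6.01 to 194), D27 25.1-fold (6.6 to 213), D100 3.43-fold (1.83 to 6.89) and APX3330 11.6-fold (4.24 to 44.2). These intervals cover counting error only. A fit without the low-count filter (33307 genes) called Sele higher at D48 than in Control (log2 4.27 ± 1.18, edgeR adjusted p = 0.00441) and lower with APX3330 than at D48 (-3.41 ± 1.09, adjusted p = 0.0225), and D100 did not differ from D48 past the threshold (-1.74 ± 0.957, adjusted p = 0.346).

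General endothelial markers were set beside the endothelial members. Of 14 endothelial markers 7 were higher at saline D48 than in Control (14.3% of all tested genes), with a median log2 change of 0.42 over the list. None passed the test at D27 or D100, where 10.2% and 11.4% of all tested genes were higher. With APX3330 5 of the 14 were lower than at D48 (10.3% of all tested genes). Pecam1, a junction molecule of endothelium, rose by log2 0.46 ± 0.136 at D48 (edgeR adjusted p = 0.0204). It was at 72.8, 77.2 and 105.7 CPM in the D48 libraries, highest in the leukocyte-rich replicate 3. Cdh5, another endothelial marker, was at 37.05, 42.2 and 45.0 CPM there. The part of leukocyte RNA in the Pecam1 values was not tested. As a description within each library, Icam1 counts were 0.160 to 0.171 of Pecam1 counts in Control, 0.266 to 0.443 in the 9 saline libraries and 0.197 to 0.243 with APX3330, with no overlap between these ranges. Leukocytes also express Icam1, and over the leukocyte gene Ptprc its counts were 0.267 to 0.399 in Control, 0.202 to 0.238 at D27, 0.180 to 0.425 at D48, 0.204 to 0.236 at D100 and 0.190 to 0.252 with APX3330. On this measure D27, D100 and APX3330 lay below Control and D48 overlapped it. The ratio of Vcam1 to Pecam1 ran from 0.226 to 0.340 in Control, 0.467 to 0.609 in the saline libraries and 0.293 to 0.341 with APX3330. Vcam1 to Ptprc was 0.47 to 0.613 in Control, 0.279 to 0.316 at D27, 0.255 to 0.643 at D48 and 0.326 to 0.474 at D100. With APX3330 it was 0.312 to 0.329. D27 and APX3330 thus lay below Control on this measure, and D48 and D100 overlapped it. Selp to Pecam1 was 0.0796 to 0.117 at D48 and 0.0162 to 0.0597 elsewhere, and Selp to Cdh5 was 0.187 to 0.23 and 0.0314 to 0.132. Over Ptprc, Selp was 0.0549 to 0.0903 in Control and 0.035 to 0.14 at D48. It was 0.018 to 0.024 at D27, 0.0153 to 0.0451 at D100 and 0.0168 to 0.0299 with APX3330. Madcam1 to Pecam1 was 0.0251 to 0.0524 in Control and 0.0366 to 0.0752 with APX3330, and the saline groups spanned 0.0598 to 0.134. Madcam1 to Ptprc was 0.0393 to 0.126 in Control, and the other groups lay in that range (0.0407 to 0.0979). Over Cdh5, Icam1 was 0.307 to 0.326 in Control, 0.563 to 0.961 in the saline libraries and 0.399 to 0.477 with APX3330. In the same order Vcam1 to Cdh5 was 0.433 to 0.622, 0.905 to 1.37 and 0.583 to 0.693. Madcam1 to Cdh5 was 0.046 to 0.103, 0.127 to 0.302 and 0.0784 to 0.152.

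Neutrophil and platelet markers were set beside the selectins. Of 8 neutrophil markers 7 were higher at D48 than in Control, 3 were higher at D48 than at D27, and 7 were lower with APX3330 than at D48. The shares of all tested genes in these comparisons were 14.3%, 0.854% and 10.3%. The neutrophil list summed to 160 to 184 CPM at D48 and 32.3 to 142 CPM elsewhere, and most of each sum was Ly6g, which averaged 114 ± 19.7 CPM (SD, n = 3) in Control and 99.0 ± 7.14 CPM at D48. The other 7 markers summed to 69.1 to 82.1 CPM at D48, 6.13 to 10.4 CPM in Control, 14.2 to 27.5 CPM at D27, 13.8 to 20.8 CPM at D100 and 7.64 to 13.4 CPM with APX3330. The list's median change at D48 was log2 3.34. Among its members the chemokine receptor Cxcr2 averaged 3.91 ± 0.478 CPM (SD, n = 3) at D48 and at most 0.877 ± 0.501 CPM in any other group. Of 4 tested platelet markers none was called in 9 of the 10 comparisons. In the other, saline D100 against D48, Itga2b, which encodes a platelet integrin chain, was lower by log2 -0.93 ± 0.257 (edgeR adjusted p = 0.0259), and Selp was lower there too. In that comparison 6.4% of all tested genes were lower. The 6 platelet genes summed to 11.6 to 22.0 CPM at D48 and 7.99 to 81.4 CPM elsewhere, and Gp9 was at 0 in all D48 libraries. A link of the Selp and Sele levels to these neutrophil or platelet markers was not tested.

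Among the integrin subunits, Itga4 pairs with the products of Itgb7 and Itgb1. It stood at 10.4, 10.7 and 13.0 CPM in Control, 28.9, 26.9 and 25.3 CPM at saline D27, 29.7, 18.7 and 46.8 CPM at D48, 21.3, 27.3 and 22.1 CPM at D100 and 14.7, 18.3 and 20.9 CPM with APX3330. Control libraries lay below all others, and the APX3330 libraries were below those of D27 and D100 but overlapped the widely spread D48 group. Itga4 rose by log2 1.25 ± 0.247, 1.48 ± 0.248 and 1.05 ± 0.248 at D27, D48 and D100 (edgeR adjusted p 0.00314, 0.000566 and 0.00691). It was lower with APX3330 than at D48 by -0.82 ± 0.241 (adjusted p = 0.0263), and without saline D48 replicate 3 the difference shrank to -0.43 ± 0.200 and lost the call (adjusted p = 0.178). The call was also lost without APX3330 replicate 1 or 2.

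Itgb7, the beta chain shared by the MAdCAM-1 and E-cadherin receptors, was at 11.4, 8.62 and 6.99 CPM in Control, 35.6, 34.7 and 20.3 CPM at saline D27, 27.3, 23.9 and 58.1 CPM at D48, 21.8, 19.0 and 29.1 CPM at D100 and 20.9, 16.3 and 12.4 CPM with APX3330. Every library of the other groups exceeded every Control library. Its rises were log2 1.75 ± 0.331, 2.02 ± 0.332 and 1.37 ± 0.331 in the saline groups by day (edgeR adjusted p 0.00243, 0.000508 and 0.00799), and 0.88 ± 0.332 with APX3330 (adjusted p = 0.0865). The difference of APX3330 from D48 was log2 -1.14 ± 0.319 (adjusted p = 0.0207). It was not called without saline D48 replicate 3 (-0.63 ± 0.269, adjusted p = 0.14), nor without APX3330 replicate 2 or 3.

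Itgae, the alpha chain that binds E-cadherin at the epithelium, read 7.59, 4.60 and 4.86 CPM in Control, 11.4, 8.06 and 6.70 CPM at saline D27, 11.1, 11.4 and 12.5 CPM at D48, 11.1, 10.8 and 10.5 CPM at D100 and 11.2, 11.3 and 9.91 CPM with APX3330. Levels with APX3330 overlapped those of every saline group and lay above all Control libraries. Itgae rose by log2 1.04 ± 0.216 at D48, 0.92 ± 0.217 at D100 and, with APX3330, by 0.93 ± 0.217 against Control (edgeR adjusted p 0.00257, 0.00679 and 0.0102), and its value of 0.61 ± 0.217 at D27 did not pass (adjusted p = 0.058). The D48 call was lost without the 2 D48 libraries that held pancreatic transcripts (0.97 ± 0.309, edgeR adjusted p = 0.0702), a fit with a single D48 library. Its differences between APX3330 and saline D27, D48 and D100 were 0.31 ± 0.212, -0.11 ± 0.210 and 0.00 ± 0.211, and none passed the test.

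Itgal and Itgb2 encode the chains of LFA-1, and Itgb2 also serves other leukocyte integrins. Itgal stood at 12.0, 12.5 and 9.65 CPM in Control, 48.4, 42.6 and 37.3 CPM at saline D27, 47.2, 32.5 and 96.9 CPM at D48, 30.2, 37.5 and 42.8 CPM at D100 and 27.4, 25.3 and 23.7 CPM with APX3330. Itgb2 stood at 12.3, 14.8 and 13.1 CPM, 41.2, 39.5 and 31.7 CPM, 52.9, 43.1 and 80.1 CPM, 29.2, 36.5 and 39.9 CPM, and 35.7, 26.7 and 22.3 CPM in the same order of groups. For both genes Control was lowest without overlap, and for Itgal the 3 APX3330 libraries formed a band between Control and all saline libraries. At D48 Itgal rose by log2 2.37 ± 0.295 and Itgb2 by 2.13 ± 0.221 (edgeR adjusted p 7.55e-05 and 2.22e-05), and the Itgal rise was the largest of the 9 tested members. Both were also higher with APX3330 than in Control, by 1.16 ± 0.293 and 1.08 ± 0.220 (adjusted p 0.0151 and 0.00428), and the Itgal call was lost without Control replicate 3. Against saline D48, APX3330 was lower by -1.21 ± 0.280 for Itgal and -1.06 ± 0.211 for Itgb2 (adjusted p 0.0077 and 0.00321). Without saline D48 replicate 3 these became -0.65 ± 0.181 and -0.77 ± 0.187 (adjusted p 0.0317 and 0.017).

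Leukocyte markers were set beside the integrin genes. All 10 pan-leukocyte markers were higher than in Control at D27 and at D48, 6 were at D100 and none with APX3330, and all 10 were lower with APX3330 than at D48. Their summed level was 185 to 222 CPM in Control, 453 to 688 CPM at D27, 427 to 1390 CPM at D48, 414 to 515 CPM at D100 and 260 to 403 CPM with APX3330. Of 10 T cell markers 9, 10, 7 and 5 were higher in saline D27, D48 and D100 and in APX3330 than in Control. For 10 B cell markers the numbers were 6, 9, 0 and 0, and for 8 macrophage markers 6, 7, 8 and 3. Of 8 tested markers of intraepithelial lymphocytes, cells that carry the Itgae product, 4, 5, 2 and 3 were higher in the same order, and none was called between APX3330 and any saline group. Beside these lists, 10.2%, 14.3%, 11.4% and 7.16% of all tested genes were higher than in Control in the same order. With APX3330 10.3% were lower than at D48. The part of these cell types in the integrin values was not tested.

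Ratios to Ptprc, the pan-leukocyte phosphatase CD45, describe the same subunits within a library. Itgal to Ptprc ran from 0.306 to 0.548 and Itgb2 to Ptprc from 0.333 to 0.725, with overlap between all 5 groups. Itgb7 to Ptprc ran from 0.222 to 0.42, also with overlap between all 5 groups. Itga4 to Ptprc was 0.304 to 0.411 in Control and 0.262 to 0.301 at D27, without overlap between them. In the other groups it ran from 0.194 to 0.385. Itgae to Ptprc was 0.280, 0.130 and 0.154 in Control, 0.118, 0.0787 and 0.0785 at D27, 0.112, 0.192 and 0.0521 at D48, 0.134, 0.146 and 0.107 at D100. It was 0.164, 0.181 and 0.182 with APX3330. The APX3330 values thus lay above all D27 and D100 values, inside the Control range and within the range of D48. Itgae to Itgb7 averaged 0.632 ± 0.086 (SD, n = 3) in Control, 0.294 ± 0.054 at D27, 0.366 ± 0.13 at D48, 0.479 ± 0.1 at D100 and, in the APX3330 libraries, 0.677 ± 0.13. For Itga4 to Itgb7 and for Itgal to Itgb2 the ranges of APX3330 overlapped those of Control, D48 and D100. At D27 Itga4 to Itgb7 overlapped APX3330 too, whereas Itgal to Itgb2 was 1.08 to 1.18 at D27 and 0.769 to 1.06 with APX3330.

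**Figure D2:**
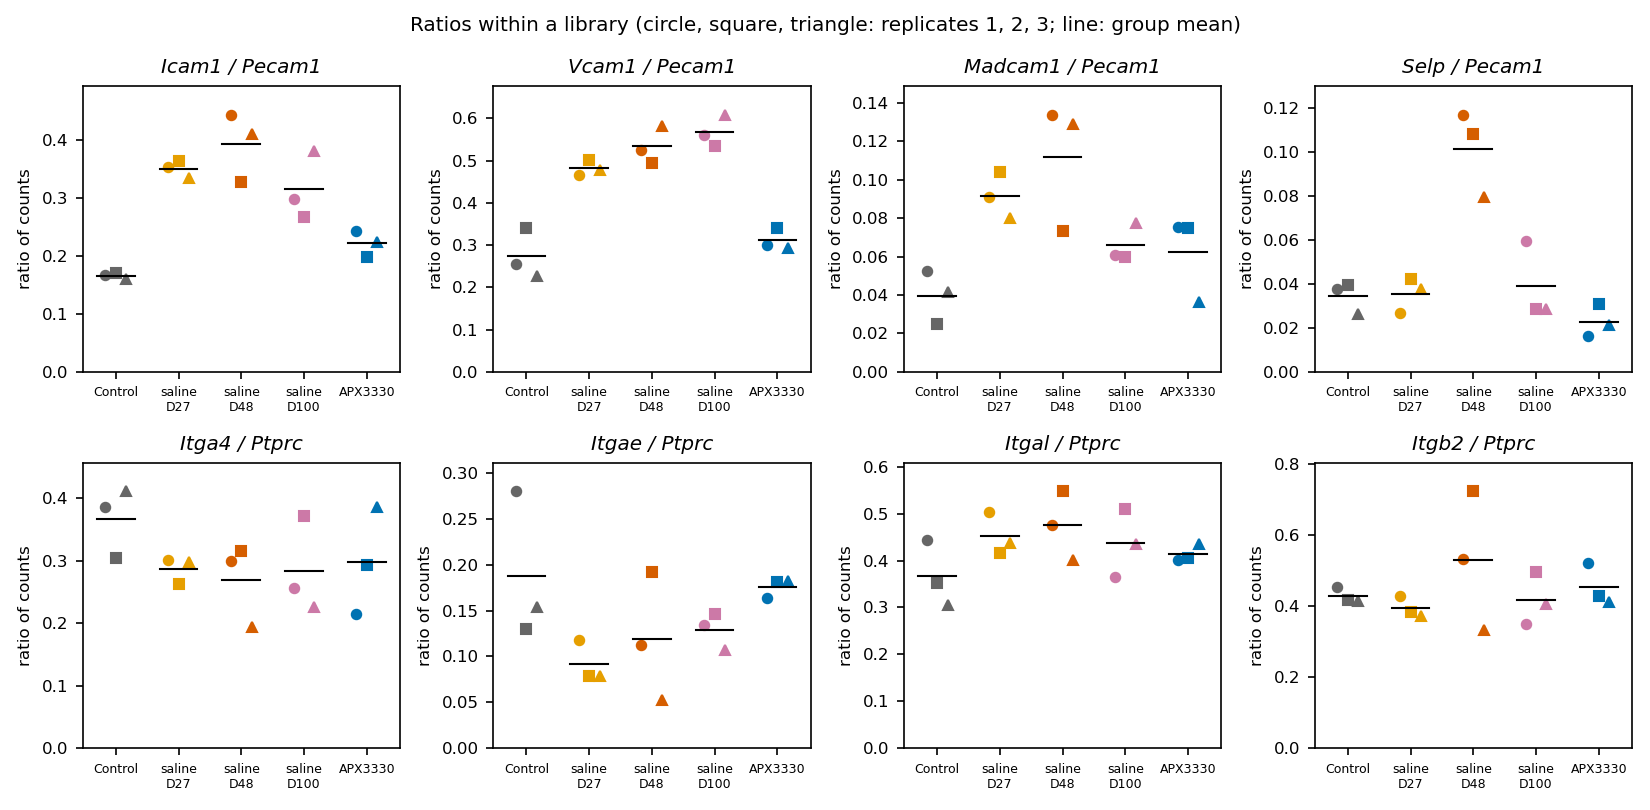
Ratio of counts within each library (y axes start at 0), for endothelial genes over Pecam1 (top) and integrin subunits over Ptprc (bottom). Points are single libraries and lines are means of 3. Vcam1 over Pecam1 is 0.467 to 0.609 in the saline libraries and at most 0.341 in Control and APX3330, while Itgal over Ptprc overlaps in all groups (0.306 to 0.548).

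Counted over the 9 tested members, 6 were higher at saline D27 than in Control (Icam1, Vcam1, Itga4, Itgb7, Itgal and Itgb2), where 10.2% of all tested genes were higher. At D48 all 9 were higher (14.3% of all genes), and at D100 7 were, all but Madcam1 and Selp (11.4%). With APX3330 3 were higher than in Control, Itgae, Itgal and Itgb2 (7.16%). No member was called lower than Control in any group, and Selp with APX3330 stood at log2 -0.57 from Control without passing. Without the 2 D48 libraries that held pancreatic transcripts 8 of 10 tested were called at D48, and Itgae was not. The median log2 changes were 1.09, 1.94, 1.02 and 0.68 for saline D27, D48, D100 and APX3330, beside medians over all tested genes that were at most 0.0153. These 4 comparisons share the Control libraries, 2 of which held squamous transcripts. A fit without those 2 and saline D100 replicate 1 leaves Control with a single library, assumed to vary like the other groups. In it the calls at D27 and with APX3330 were lost and those at D48 were kept. At D100 only the call of Itgb2 was kept. The share of all genes called in that fit was not computed, so a general loss of calls cannot be told apart.

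**Figure D3:**
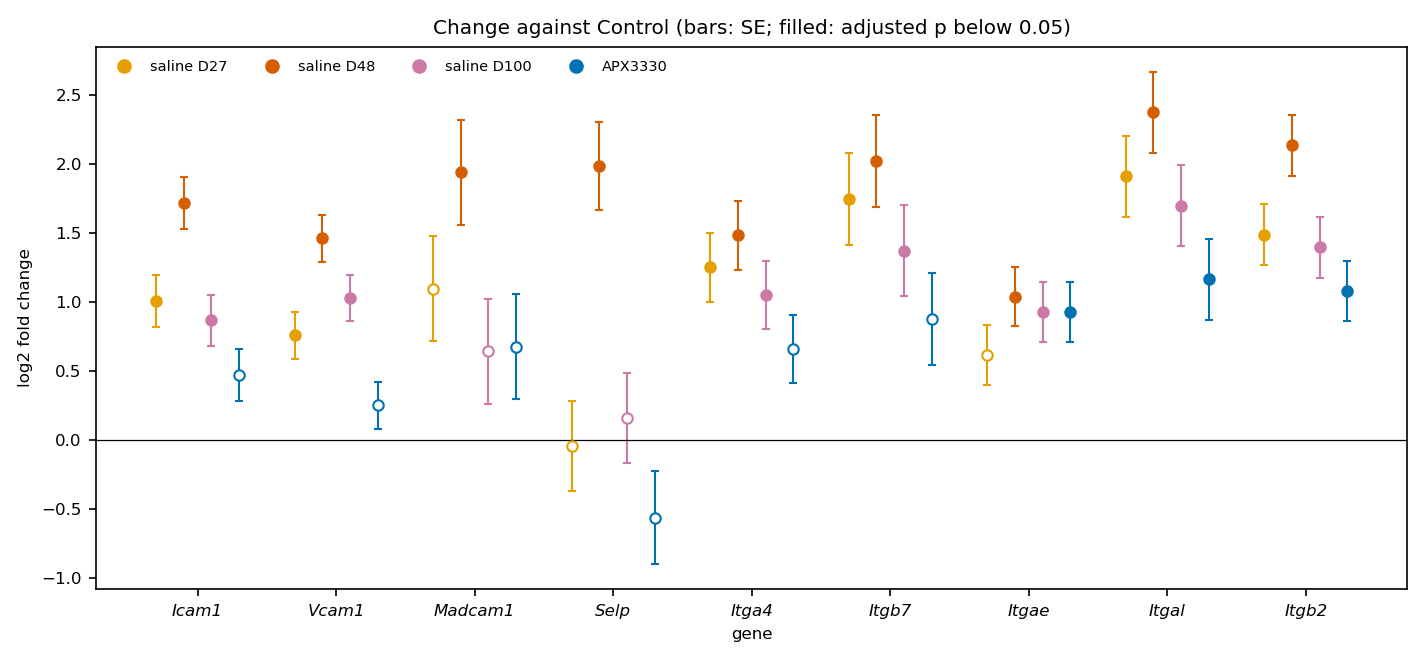
Log2 fold change against Control of the 9 tested genes in saline D27, D48 and D100 and in APX3330 (points, with SE bars). Filled points had an edgeR adjusted p below 0.05. The D48 points are all filled, from 1.04 for Itgae to 2.37 for Itgal, and Selp is near or below 0 in APX3330 and at D27 (-0.57 and -0.05).

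The series compares APX3330 with saline in this model. Against saline D48 8 of 9 members were lower, all but Itgae, where 10.3% of all tested genes were lower, and the median of the members was log2 -1.21. Without saline D48 replicate 3 the count was 5 of 9 (Icam1, Vcam1, Selp, Itgal and Itgb2), and it was 5 without APX3330 replicate 2. Without both D48 libraries that held pancreatic transcripts it was 5 of 10 tested. That fit leaves D48 with a single library, assumed to vary like the other groups. Against saline D27 0 members were called by edgeR (9.08% of all genes were called in either direction), although 5 had an unadjusted p below 0.05 and DESeq2 called 4 lower: Icam1, Vcam1, Itgb7 and Itgal. Against saline D100 0 were called by edgeR (0.504% of all genes), 3 had an unadjusted p below 0.05, and DESeq2 called Vcam1. Shares of all genes were computed for the edgeR calls only, so the unadjusted and DESeq2 counts have no background beside them. The medians in these latter comparisons were log2 -0.52 and -0.40. The 3 comparisons share the APX3330 libraries, and since no day is given for them, drug and day cannot be told apart.

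**Figure D4:**
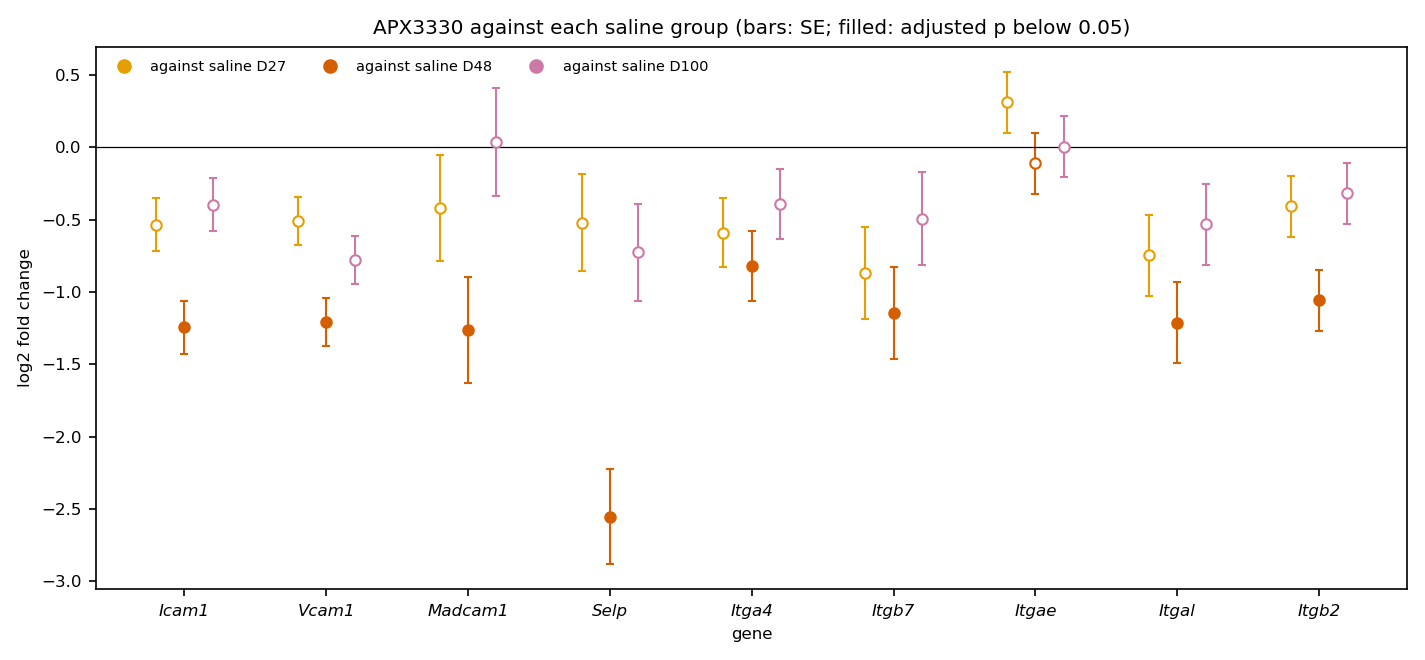
Log2 fold change of APX3330 against saline D27, D48 and D100 for the 9 tested genes (points, with SE bars, below 0 where APX3330 was lower). Filled points had an edgeR adjusted p below 0.05. Against D48 8 genes are filled, the lowest being Selp at -2.55, and Itgae lies near 0 (-0.11).

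Fewer members were called between saline days. From D27 to D48 Vcam1 (log2 0.70 ± 0.164, edgeR adjusted p = 0.0453) and Selp (2.03 ± 0.320, adjusted p = 0.0083) were higher, 2 of 9 members beside 0.854% of all tested genes. Vcam1 lost its call without saline D48 replicate 3 or any 1 of the D27 libraries. The Selp call was lost without the D48 libraries that held pancreatic transcripts, a fit with a single D48 library. It was also lost when a change of at least log2 1 was tested. Over all alternative fits the Selp change ran from log2 1.92 to 2.16. From D48 to D100 4 members were lower, Icam1 (-0.85 ± 0.181), Madcam1 (-1.30 ± 0.368), Selp (-1.83 ± 0.318) and Itgb2 (-0.74 ± 0.210), beside 6.4% of all genes, with edgeR adjusted p of 0.00716, 0.0292, 0.00228 and 0.0294. Without saline D48 replicate 3, or without any 1 D100 library, 2 of the 9 or 10 tested members were called, and without D48 replicate 2 7 were. Icam1 and Selp were the 2 still lower without D48 replicate 3. Between D27 and D100 0 members were called by edgeR or DESeq2 and 0 had an unadjusted p below 0.05, beside 3.08% of all genes called in either direction.

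Among 12 tested genes that make or carry selectin ligands or bind with them, 6 were higher and 3 lower at D48 than in Control, and 2 were higher and 5 lower with APX3330 than at D48. Of all tested genes 14.3% were higher at D48 and 10.3% were lower with APX3330. For this list and those below, shares of all genes in the opposite directions are not given, so those counts have no background. Selplg, the main P-selectin ligand of leukocytes, rose by log2 2.12 ± 0.286 at D48 and was lower by -1.56 ± 0.278 with APX3330. The hyaluronan receptor gene Cd44 rose by 0.96 ± 0.122 and differed by -0.76 ± 0.121. Fut4, a fucosyltransferase, fell by 1.09 on the log2 scale at D48 and was higher with APX3330 by 0.76 ± 0.111. Glycam1, an L-selectin ligand of high endothelial venules, was at 0.662, 1.20 and 13.0 CPM in the D48 libraries and 0.0676, 0.0667 and 0.134 CPM with APX3330. The D48 level of Glycam1 rests on replicate 3, the library with the most B cell RNA.

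Many homing chemokine and receptor genes were higher at D48. Of 17 tested, 11 were higher and 1 lower at D48 than in Control (14.3% of all tested genes were higher), 5 higher and 1 lower at D27 (10.2% higher), and 1 higher and 1 lower at D100 (11.4% higher), so that the D100 share was no larger than that of all genes. With APX3330 10 were lower (10.3% of all genes) and 1 higher than at D48, and 0 were higher and 1 lower than in Control. Cxcl9, an interferon-induced ligand of Cxcr3, rose by log2 4.26 ± 0.624 at D48. Ccl21a, a lymphoid chemokine that draws Ccr7-bearing cells, rose by 1.30 ± 0.220, and Ccr7 by 1.90 ± 0.435. The 3 were lower with APX3330 than at D48 by -2.68 ± 0.559, -1.30 ± 0.220 and -2.50 ± 0.450. Ccr7 read 11.3, 4.80 and 24.4 CPM in the D48 libraries, again highest in replicate 3, and 2.77, 1.93 and 2.48 CPM with APX3330.

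Of 18 tested genes for cytokines, receptors and NF-kB factors that act on endothelium, 10 were higher and 0 lower at D48 than in Control, and 13 were lower and 0 higher with APX3330 than at D48. Among all tested genes 14.3% were higher at D48 and 10.3% were lower with APX3330. Il1b rose by log2 4.36 ± 0.526 at D48 and was lower by -3.35 ± 0.487 with APX3330. Its level was 46.0, 10.9 and 18.1 CPM in the D48 libraries and 1.55, 3.00 and 2.75 CPM with APX3330, and here replicate 1 was the highest. The TNF receptor gene Tnfrsf1b rose by 1.46 ± 0.181 and the NF-kB subunit gene Nfkb2 by 0.70 ± 0.133 at D48. With APX3330 Nfkb2 (-0.75 ± 0.133), the NF-kB subunit gene Relb (-0.56 ± 0.0884) and the TNF receptor gene Tnfrsf1a (-0.54 ± 0.0892) were lower than at D48. At D27 3 of the 18 were higher (10.2% of all tested genes). At D100 2 were higher (11.4% of all tested genes) and 1 lower, so that the D100 share was no larger than that of all genes.

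Other lists gave mixed directions. Beside them, 14.3% of all tested genes were higher at D48 than in Control, and 10.3% were lower with APX3330 than at D48. The counts lower at D48 or higher with APX3330 have no such share beside them. Of 11 tested genes that switch integrins to the binding state or adapt their signals, 7 were higher and 1 lower at D48 than in Control, and 6 were lower and 1 higher with APX3330 than at D48. Fermt3, the kindlin of blood cells, rose by log2 1.71 ± 0.289 and was lower with APX3330 by -1.30 ± 0.283, while the small GTPase gene Rap1a fell by 0.60 at D48 and was higher by 0.41 ± 0.107. Of 9 other integrin subunits that leukocytes share with other cells, 2 were higher and 2 lower at D48: Itgax, a subunit of dendritic cells and macrophages, rose by 1.51 ± 0.222, and Itga5, a fibronectin receptor chain, fell by 0.64. Of 12 junction and other ligand genes 5 were higher and 2 lower at D48. Of 6 tested genes for retinoic acid synthesis and response, a signal that induces gut homing in lymphocytes, 2 were higher and 1 lower at D48, Aldh1a3 at 1.23 ± 0.384 and Rdh10 at 0.74 ± 0.158 against Aldh1a1 at -1.19 ± 0.146. With APX3330 Aldh1a3 was lower than at D48 by -2.13 ± 0.400 and Aldh1a1 higher by 0.79 ± 0.145. For all genes named from these lists the edgeR adjusted p was below 0.05, and the lists were chosen with earlier results in view.

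Likeness of pattern was described by Pearson r of log2(CPM + 1) over the 15 libraries, among 13091 genes. The points share groups and the leukocyte-rich library, so r describes these libraries only. The nearest genes to Itgal were Cd48 (0.982), Lcp1 (0.973) and Ptprc (0.972), all leukocyte genes, and to Itgb2 Snx20 (0.979), H2-Eb1 (0.973) and Prex1 (0.972). Icam1 was nearest to Cyth4 (0.975), Csf2rb (0.974) and Prex1 (0.974), and Vcam1 to Gbp5 (0.963), Csf2rb (0.953) and Cd44 (0.95). Madcam1 was nearest to Sema4d (0.933), Itga4 to Gvin-ps7 (0.951) and Itgb7 to Dock2 (0.961). Selp was nearest to the stromal protease gene Mmp3 (0.934), Col18a1 (0.928) and Cemip (0.92), and Sele to Ccr1 (0.897). Itgae was nearest to Hs3st3b1 (0.904), then H2-M2 (0.86) and P2rx7 (0.857). Between members r was 0.968 for Itgal and Itgb2, 0.944 for Icam1 and Itgb2, 0.922 for Icam1 and Vcam1, and, lowest of all pairs of tested members, 0.323 for Selp and Itgae. Without saline D48 replicate 3 these were 0.956, 0.924, 0.881 and 0.221.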

How the data were processed

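Total RNA of mouse colon was sequenced in 15 libraries from 5 groups. The authors deposited 1 table of unnormalised, whole-number gene counts. Per the labels' protocols, column-purified RNA went into SMARTER libraries. GRCm38 and mm10 are named in the submitters' processing notes. The aligner, counter and strand setting were not given in the sources used here. Table columns were matched by name.

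The whole table was fitted in R 4.3.3 with edgeR 4.0.16 (TMM, filterByExpr, glmQLFit and glmQLFTest over all 15 libraries), with Benjamini-Hochberg adjustment over 18038 genes and calls below 0.05. SE is the log2 fold change over the square root of F. CPM was computed with TMM factors, and CPM per kilobase with GENCODE M21 exon lengths joined over all transcripts of a gene. The fit was tested on simulated data. Replicate numbers did not pair the libraries, and no replicate pair within a group agreed within counting noise.

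All 10 members are named. From each other list at most 4 genes with the smallest p among those called in a comparison are named. Cxcr2, Ly6g and Itga2b, and the values by library of list genes, were chosen after they were seen. So were Icam1, Vcam1, Madcam1 and Selp over Ptprc, the pattern GGANNTTCC and the promoters printed. The members and lists were chosen with earlier results of these data known. Alternatives used DESeq2 1.42.0 and limma 3.58.1 (voom with quality weights), other settings and libraries left out. Figures used Python 3.11.15 and matplotlib 3.10.9.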

Additional observations from a re-analysis of the deposited data

How the results depend on the processing

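Each comparison was refitted with DESeq2 size factors, no low-count filter, the DESeq2 test, a replicate block and limma-voom with quality weights. Other refits tested a change of at least log2 1, used only the groups compared, or left out libraries holding squamous or pancreatic transcripts. Each library of the compared groups was also left out in turn. Over 90 pairs of member and comparison (39 called) these gave 1350 values: 1189 kept direction and side of the threshold, 92 lost a call, 51 gained one and 18 changed sign, 0 of them among called pairs. Some calls were lost in fewer libraries, which have less power by construction, and causes were otherwise not tested. Shares of all genes called were computed for the main fit only. The counts of members below therefore cannot be set against a general change in calls.

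With a change of at least log2 1 the counts of members called fell from 6 to 0 at saline D27, from 9 to 5 at D48, from 7 to 0 at D100 and from 3 to 0 with APX3330 against Control, from 8 to 1 for APX3330 against D48, from 2 to 0 for D48 against D27 and from 4 to 0 for D100 against D48. Without the squamous libraries they were 0 at D27, 1 at D100 and 0 with APX3330 against Control, 1 for D48 against D27 and 2 for D100 against D48. Without the pancreatic libraries they were 5 for APX3330 against Control, 5, 5 and 1 for APX3330 against D27, D48 and D100, 0 for D48 against D27 and 1 for D100 against D48. Without the filter they were 5 for APX3330 against Control, 5 and 1 against D27 and D100, 5 for D48 against D27 and 7 for D100 against D48. With only the groups compared they were 5 for APX3330 against Control, 1, 5 and 1 against D27, D48 and D100, and 1 for D48 against D27. DESeq2 gave 4 and 1 for APX3330 against D27 and D100 and 4 for D48 against D27, and limma-voom gave 4 for APX3330 against D27.

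Leaving out 1 library gave 0 to 1 for APX3330 against D27, 5 to 9 against D48, 1 to 3 for D48 against D27 and 2 to 7 for D100 against D48. The replicate block, fitted although only 3 of 30 same-numbered pairs correlated above 0.1 (-0.139 to 0.251) and 3 of 15 libraries correlated best with their own number, changed 1 count, D48 against D27, from 2 to 1.

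Sign changes, all in uncalled values, were these. Leaving out 1 library gave ranges of -0.174 to 0.0734 for Selp at D27 and -0.33 to 0.40 at D100 against Control, -0.29 to 0.44 for Selp and -0.198 to 0.0285 for Itgb2 at D100 against D27, -0.22 to 0.33 for Madcam1 and -0.0312 to 0.0629 for Itgae with APX3330 against D100, and -0.16 to 0.51 for Itga4, -0.24 to 0.51 for Itgb7 and -0.10 to 0.76 for Itgal at D48 against D27. Without the squamous libraries Selp at D100 was -0.39 against Control and -0.28 against D27, and Itgb2 was 0.0297 against D27. Without the pancreatic libraries Itgb7 was -0.15 at D48 against D27, and with limma-voom Madcam1 was -0.022 for APX3330 against D100. With a pseudocount of 0.1 for the likeness search, 22 of the 30 nearest genes (3 a member) were kept. For Sele 1 of 3 was, and Tmem176a came before Ccr1. Of the other genes named, Prex1 for Itgb2, Cemip for Selp and P2rx7 for Itgae were no longer among the 3 nearest. Ratios within a library are the same from counts or CPM by construction. Groups of 3 libraries were not tested for outlying libraries. The fits without squamous or pancreatic libraries leave Control or D48 with 1 library, assumed to vary like the others.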
